A study of Mus musculus with 8 samples.

Results

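Fatty acid oxidation, ketogenesis and the targets of the nuclear receptor PPARA were followed in mouse liver as a group of 42 genes. The genes were listed by name for their known role, with earlier results of these data known: 2 transcription factors (*Ppara* and *Creb3l3*), 4 genes of fatty acid uptake and activation, 5 of the carnitine shuttle, 10 of mitochondrial beta-oxidation, 5 auxiliary enzymes for unsaturated fatty acids, 3 of the electron transfer flavoprotein chain, 8 of peroxisomal oxidation, 2 of ketone body metabolism and 3 other PPARA targets. All 42 were among the 14506 genes of the table, and all 42 passed the filter of a mean normalized count of at least 10 that left 11174 genes for testing. They held between 0.801% and 1.27% of the reads of a liver, and the lowest count behind any member's value was 23 reads.

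The livers came from 4 *Rragc*+/+ and 4 *Rragc* S74N/+ mice, all C57BL/6 and kept on a standard chow diet. *Rragc* encodes RagC, a GTPase that relays nutrient supply to mTORC1, a kinase complex that drives growth. S74N is a serine-to-asparagine substitution knocked into the endogenous gene and carried on 1 allele in every tissue. The *Rragc*+/+ mice were 3, 3, 3 and 2.5 months old (replicates 1 to 4) and the *Rragc* S74N/+ mice 3, 3, 2.5 and 2 months old. The study asked whether transcription in young mutant organs already differs before damage is seen, and the comparison made here is the genotype difference of each member. The 2-month-old mouse was *Rragc* S74N/+, so that its age and its genotype cannot be told apart.

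Depth and identity of the livers were checked first. Reads recovered in listed genes ranged from 4313076 to 6632108 per liver. Of 11 hepatocyte markers 10 were tested, with a mean log2 level of 13.98 in the *Rragc*+/+ group and 14.18 in the *Rragc* S74N/+ group, while of 7 adipocyte markers *Adipoq*, *Plin1*, *Retn*, *Lep* and *Cidea* were not listed. Of the other adipocyte markers *Cfd* was in the table and too low to be tested, and *Fabp4* was tested, at a mean log2 level of 3.60 and 3.84 and highest (5.07) in *Rragc* S74N/+ replicate 4. *Rragc* itself was at 84.1 ± 20.4 and 76.6 ± 7.32 (SD, n = 4 each), which does not check the labels, since the edit substitutes 1 residue and leaves the gene in place. In whole tissue, fewer cells of a type and less RNA per cell cannot be told apart.

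Fatty acids that enter a hepatocyte are bound by FABP1 and joined to coenzyme A by acyl-CoA synthetases. The carnitine shuttle then carries long chains across the mitochondrial membranes, where CPT1A is the controlled step, and beta-oxidation cuts them into acetyl-CoA, from which the liver makes ketone bodies during fasting. Peroxisomes shorten very long and branched chains. PPARA binds DNA as a partner of RXR, senses fatty acids and switches on most of these genes in the fasted liver, and in liver mTORC1 is known to restrain it.

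PPARA and RXR recognise a direct repeat of AGGTCA with 1 base between the copies (DR1, AGGTCANAGGTCA), so promoter windows were searched for it on both strands. Windows of 300 bases, 250 before and 50 after a start, were taken from RefSeq on GRCm38.p6 and were found for 35 of the 42 members, 40 windows in all. Allowing up to 2 mismatches over the 12 fixed letters, 7 of the 40 member windows (17.5%) held a DR1-like sequence, against 3.86% of all 32851 windows and 3.25% of the windows of tested genes. No member window held the exact repeat, which occurred in 13 windows overall. The 7 matches are shown because they are, among the 35 members read, those with a sequence like the element of the receptor the group is named for. Each is written on the strand of the motif, with the letters that match it in capitals and the spacer and mismatches in lower case:
*Fabp1*: AGGcCAtAGGTCA
*Plin2*: AGGTCAggGGTCc
*Creb3l3*: AGGggAgAGGTCA
*Echs1*: AGGTCAcgGGTCc
*Etfa*: AGGgCAaAGGTaA
*Acox2*: AGGaCAgAGGTgA
*Slc25a20*: AGGTgAaAGGTCg
The *Fabp1* match has 1 mismatch and the other 6 have 2. Those of *Fabp1*, *Plin2*, *Creb3l3*, *Echs1* and *Etfa* begin 67, 225, 209, 83 and 77 bases before the RefSeq start of their window, and those of *Acox2* and *Slc25a20* begin 9 and 6 bases after it. *Creb3l3* and *Acox2* had more than 1 window, and the window nearer the annotated start of the gene held no match. The *Creb3l3* match is in chr10:81092542-81092841, well inside the gene as GENCODE annotates it (chr10:81084324-81098874, reverse strand). The *Acox2* window with the match also lies inside its annotated gene. The half-site AGGTCA alone, which is part of DR1, was in 9 of 40 member windows (22.5%). It was in 16.3% of all windows and 13.1% of those of tested genes. The E-box CACGTG was in 1 member window (2.5%), that of *Plin2*, against 7.15% of all and 9.85% of those of tested genes. A match is a description of letters, not evidence of a bound site.

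For *Fabp1*, the fatty acid carrier of the group, and *Plin2*, the lipid droplet coat protein that was among the members with the lowest unadjusted p, the sequence before the annotated gene is given 5′ to 3′ on the strand of the gene, with the DR1-like sequence in capitals. The *Fabp1* stretch is chr6:71199629-71199826 (forward strand, 198 bases) and the *Plin2* stretch is chr4:86670061-86670309 (reverse strand, 249 bases), both on GRCm38. The RefSeq start of *Fabp1* lies inside the gene as GENCODE annotates it, so this stretch ends before that start and its DR1-like sequence stands near its end:
*Fabp1*: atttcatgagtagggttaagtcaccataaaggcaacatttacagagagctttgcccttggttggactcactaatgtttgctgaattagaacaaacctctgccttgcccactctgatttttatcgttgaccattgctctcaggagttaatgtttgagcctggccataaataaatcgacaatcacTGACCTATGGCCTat
*Plin2*: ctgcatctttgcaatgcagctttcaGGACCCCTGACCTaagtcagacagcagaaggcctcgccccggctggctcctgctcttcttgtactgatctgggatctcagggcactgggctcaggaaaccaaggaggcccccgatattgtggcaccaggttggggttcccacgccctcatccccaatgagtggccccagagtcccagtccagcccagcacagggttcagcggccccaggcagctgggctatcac
In both, the match lies on the opposite strand to the gene. The levels of both genes follow with their groups.

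No member differed between the genotypes after adjustment over all tested genes. With limma on log2(normalized count + 1) and Benjamini-Hochberg adjustment, 0 of 42 members had an adjusted p under 0.05, against 1 of 11174 genes (0.00895%), and the smallest adjusted p of a member was 0.846. The edgeR test on recovered reads also gave 0 members against 0.00895% of genes (smallest adjusted p 0.812), and DESeq2 gave 0 against 0.0895% (smallest adjusted p 0.644). At an unadjusted limma p under 0.05 there were 3 members, *Vnn1*, *Crat* and *Plin2*, each lower in *Rragc* S74N/+, which is 7.14% of members against 5.17% of all genes in either direction and 2.8% in the lower direction. The number was 2 with edgeR (*Vnn1* and *Crat*, background 5.53%) and 3 with DESeq2 (*Vnn1* and *Crat* lower and *Acsl5* higher, background 6.04%). The genotypes did not overlap for 1 member, *Hsd17b4*, or 2.38% against 2.94% of all genes.

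The direction of the differences leaned down. Of the 42 log2 fold changes (*Rragc* S74N/+ minus *Rragc*+/+), 29 were below 0 and 13 above, or 69% below and 31% above against 48.7% and 51.3% of all tested genes. Every member had a mean of at least 106.5, and of the 4884 tested genes with a mean of at least 100, 2673 were below 0 and 2211 above. The median of the members was -0.17, against 0.01 over all tested genes and -0.04 over those with a mean of at least 100. The fold changes ran from -1.12 (*Vnn1*) to 0.62 (*Acsl5*), and 35 of 42 were smaller than 0.5 in size. The 95% intervals held 0 for 39 members, and 28 intervals lay wholly between -1 and 1, so that for the other 14 a change of 2-fold in at least 1 direction was within the error.

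**Figure D1:**
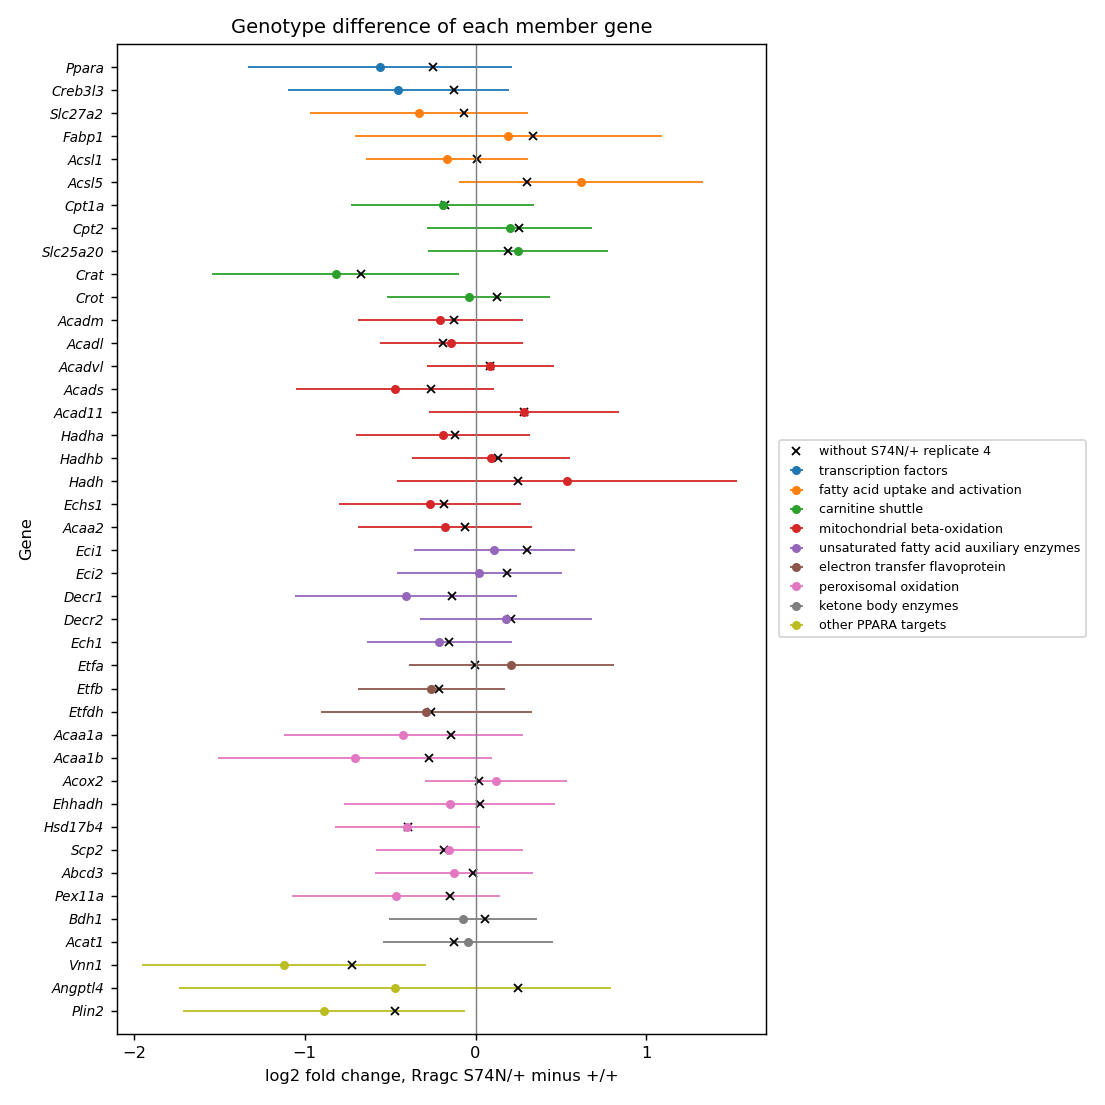
Log2 fold change of each of the 42 members, *Rragc* S74N/+ minus *Rragc*+/+ (x axis), with the 95% interval from limma as a bar, coloured by role. Crosses give the value without *Rragc* S74N/+ replicate 4. Of the 42 intervals 39 hold 0, and those of *Vnn1*, *Crat* and *Plin2* lie below it.

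Part of the lean rested on 1 liver. *Rragc* S74N/+ replicate 4, the 2-month-old mouse, was the lowest of the 8 livers for 20 of 42 members (47.6%), whereas it was lowest for 18.4% of all tested genes. *Rragc* S74N/+ replicate 1 was lowest for 7 members and *Rragc*+/+ replicate 2 for none. *Rragc* S74N/+ replicate 3, in turn, lay above the median of the 8 livers for 31 of 42 members, as did *Rragc*+/+ replicate 2, so the mutant livers held both ends of the range.

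The mean log2 level of the 42 members put this in 1 value per liver. It was 9.78, 9.88, 9.83 and 9.73 for *Rragc*+/+ replicates 1 to 4. For the *Rragc* S74N/+ livers, in the same order, it was 9.65, 9.70, 9.89 and 9.28. The groups overlapped, with the highest and the lowest value both in *Rragc* S74N/+ livers, and the spread was wider there (SD 0.253 against 0.0671). The difference of the means was -0.17, and it was -0.06 without *Rragc* S74N/+ replicate 4. Without that liver the median fold change of the members was -0.09, and 25 of 42 were below 0. The count below 0 was then 5339 of all 11174 tested genes and 2502 of the 4884 with a mean of at least 100. In that setting 1 member (*Vnn1*) had an unadjusted p under 0.05 against 2.82% of genes.

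**Figure D2:**
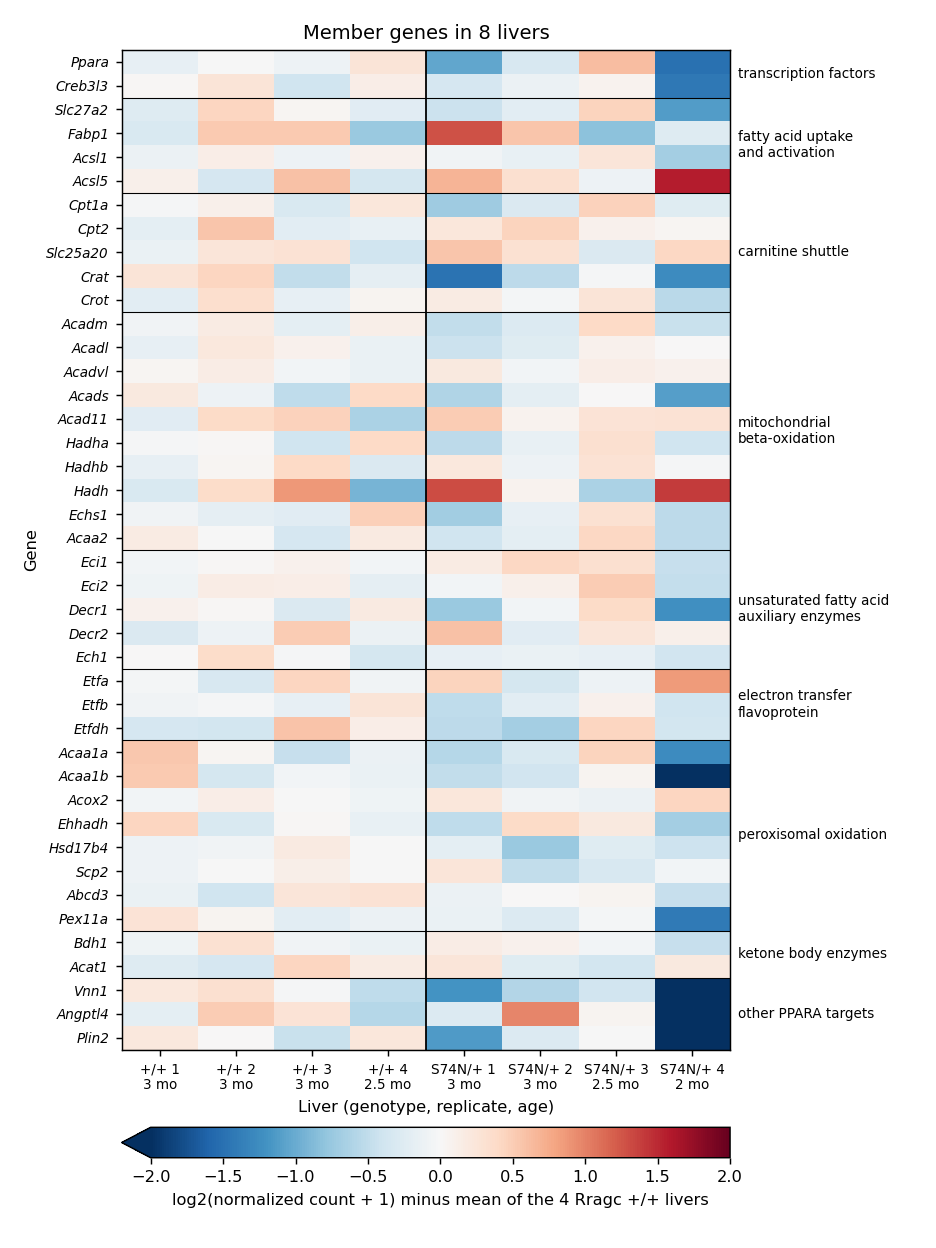
Heat map of log2(normalized count + 1) of the 42 members (rows, grouped by role) in the 8 livers (columns, with genotype, replicate and age in months), each relative to the mean of the 4 *Rragc*+/+ livers. Blue is lower and red is higher, with values under -2 drawn in the darkest blue. *Rragc* S74N/+ replicate 4 is the lowest liver for 20 of 42 members, while replicate 3 is mostly pale or red.

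Ages were then matched as far as the design allows. With the 3 *Rragc*+/+ and 2 *Rragc* S74N/+ mice of 3 months alone, 5 members had an unadjusted limma p under 0.05 against 5.74% of all genes, and none had an adjusted p under 0.05. These were *Vnn1* (log2 fold change -1.06), *Crat* (-1.06), *Plin2* (-0.62) and *Ppara* (-0.60), which were lower, and *Fabp1* (0.67), which was higher in *Rragc* S74N/+. The median over the members was -0.15 in these mice. With age as a factor in the model the median was -0.11. *Vnn1*, *Plin2* and *Crat* then had an unadjusted limma p under 0.05 against a background of 5.66%. *Rragc* S74N/+ replicate 4, the only 2-month-old mouse, adds nothing to the genotype term of that model. The term rests on the 3-month-old and 2.5-month-old mice, with 1 mouse of each genotype at 2.5 months.

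The count at an unadjusted p depended on single livers. Without *Rragc* S74N/+ replicate 3 it was 13 of 42 members (31% against 15.1% of all genes), 11 lower and 2 higher (backgrounds 7.14% and 7.98%), none with an adjusted p under 0.256. Without *Rragc*+/+ replicate 3 it was 5 (background 6.79%). It was 1 without *Rragc*+/+ replicate 1 (background 3%), without *Rragc*+/+ replicate 2 (5.41%) and without *Rragc* S74N/+ replicate 1 (3.88%).

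Among the transcription factors, *Ppara* (chr15:85734983-85802819, forward strand) ranged widely within the mutant group. Its normalized count was 1320, 1475, 1376 and 1773 in *Rragc*+/+ livers, always given here in the order of replicates 1 to 4, and 716, 1179, 2263 and 525 in the *Rragc* S74N/+ ones. The 3-month-old and 2-month-old *Rragc* S74N/+ livers lay under every *Rragc*+/+ liver, and the 2.5-month-old one lay above them all. The log2 fold change was -0.56 ± 0.36 (SE, limma adjusted p = 0.846, exact two-sided permutation p = 0.314), and it was -0.25 without *Rragc* S74N/+ replicate 4 and -0.95 without replicate 3. *Creb3l3*, a membrane-bound factor of the fasted liver that acts beside PPARA, was at 3067 ± 572 and 2373 ± 893 (SD, n = 4 each), with its lowest value, 1119, in *Rragc* S74N/+ replicate 4. Its log2 fold change was -0.45 ± 0.30 (SE, limma adjusted p = 0.846), and -0.12 without that liver.

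Genes of fatty acid uptake and activation differed among themselves. *Fabp1*, whose promoter sequence is given above (chr6:71199827-71205023, forward strand), was at 4593, 8175, 8138 and 3398 in *Rragc*+/+ livers and at 13775, 8325, 3225 and 4772 in *Rragc* S74N/+ livers. *Rragc* S74N/+ replicate 1 was the highest of the 8 and replicate 3 the lowest, so the mutant group spanned the wild-type one. The difference was 0.19 ± 0.42 (SE, limma adjusted p = 0.923). *Acsl5*, an acyl-CoA synthetase (chr19:55251938-55297720, forward strand), had the highest fold change of the members. It was at 642, 469, 893 and 467 in *Rragc*+/+ and at 958, 743, 555 and 1769 in *Rragc* S74N/+ livers, a log2 difference of 0.62 ± 0.33 (SE, limma adjusted p = 0.846). Without *Rragc* S74N/+ replicate 4, its highest liver, the value was 0.30. *Acsl1*, the main synthetase of the oxidising hepatocyte, and *Slc27a2*, a transporter and very-long-chain acyl-CoA synthetase, had log2 fold changes of -0.17 and -0.33, and both were lowest in *Rragc* S74N/+ replicate 4.

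The carnitine shuttle held *Crat*, the member with the lowest p after *Vnn1*. *Crat*, the carnitine acetyltransferase (chr2:30400471-30415813, reverse strand), was at 204, 230.1, 122 and 150.4 in *Rragc*+/+ livers and at 60.6, 119, 169 and 71.0 in *Rragc* S74N/+ livers. Replicates 1, 2 and 4 of *Rragc* S74N/+ lay under every *Rragc*+/+ liver and replicate 3 lay inside their range. The log2 fold change was -0.82 ± 0.33 (SE, 95% interval -1.54 to -0.10, limma adjusted p = 0.846, exact two-sided permutation p = 0.114). *Cpt1a*, the controlled step of entry into mitochondria (chr19:3322334-3385733, forward strand), was at 635, 691, 521 and 755 against 392, 529, 890.4 and 547. Its groups overlapped, with both extremes in *Rragc* S74N/+ livers, and the difference was -0.19 ± 0.25 (SE), or -0.41 to -0.019 when a liver was left out. *Cpt2*, the inner-membrane partner (chr4:107903981-107923610, reverse strand), was at 265, 446, 262 and 274 against 356, 412, 323 and 310.0, a difference of 0.20 ± 0.22 (SE). *Slc25a20*, the carnitine-acylcarnitine translocase, and *Crot*, the peroxisomal octanoyltransferase, differed by 0.25 and -0.04.

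The 10 genes of mitochondrial beta-oxidation differed little between the genotypes as a group. They had log2 fold changes from -0.47 (*Acads*) to 0.54 (*Hadh*), 6 of them below 0, with a median of -0.16, and none had an unadjusted p under 0.05 with limma. The mean log2 level of the 10 was 9.89 ± 0.0776 (SD, n = 4) in *Rragc*+/+ livers and 9.85 ± 0.137 (SD, n = 4) in *Rragc* S74N/+ livers. *Acadvl*, which starts the oxidation of long chains, varied least of all 42 members, with an SD of 0.113 over the 8 livers on the log2 scale and a difference of 0.09. *Acadm*, the medium-chain dehydrogenase (chr3:153922357-153944632, reverse strand), was at 948, 1112, 864 and 1074 in *Rragc*+/+ and 705, 820.3, 1311 and 728 in *Rragc* S74N/+ livers. As for *Ppara* and *Cpt1a*, *Rragc* S74N/+ replicate 3 was the highest of the 8 livers. The *Acadm* difference was -0.21 ± 0.22 (SE, limma adjusted p = 0.858).

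The trifunctional protein that carries out the later steps on long chains is made by *Hadha* and *Hadhb*, which lie head to head on chromosome 5 and whose promoter windows share 228 bases. *Hadha* (chr5:30118304-30155162, reverse strand) was at 1867, 1925, 1434 and 2491 in *Rragc*+/+ livers and at 1312, 1705, 2374 and 1429 in *Rragc* S74N/+ livers, a difference of -0.19 ± 0.24 (SE). *Hadhb* differed by 0.09 ± 0.21 (SE). The genotypes overlapped for both. *Hadh*, the short-chain hydroxyacyl-CoA dehydrogenase (chr3:131233419-131272101, reverse strand), was at 364, 583, 818 and 234.5 against 1115, 474, 289.7 and 1181. Replicates 1 and 4 of *Rragc* S74N/+ stood above the other 6 livers, and replicate 3 was near the bottom. The difference was 0.54 ± 0.46 (SE, limma adjusted p = 0.847). It was 0.25 without replicate 4, 0.28 without replicate 1 and 0.93 without replicate 3 of *Rragc* S74N/+. *Acad11*, a dehydrogenase of long and very long chains (chr9:104063377-104127725, forward strand), was at 202, 309, 325 and 152 against 334, 248, 286 and 287, a difference of 0.28 ± 0.26 (SE). The annotated genes *Gm28305*, *Gm47000* and *Gm46999* overlap *Acad11* on the same strand, so its reads are uncertain to that extent. *Acadl*, *Echs1*, *Acaa2* and *Acads* differed by -0.14, -0.27, -0.18 and -0.47.

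**Figure D3:**
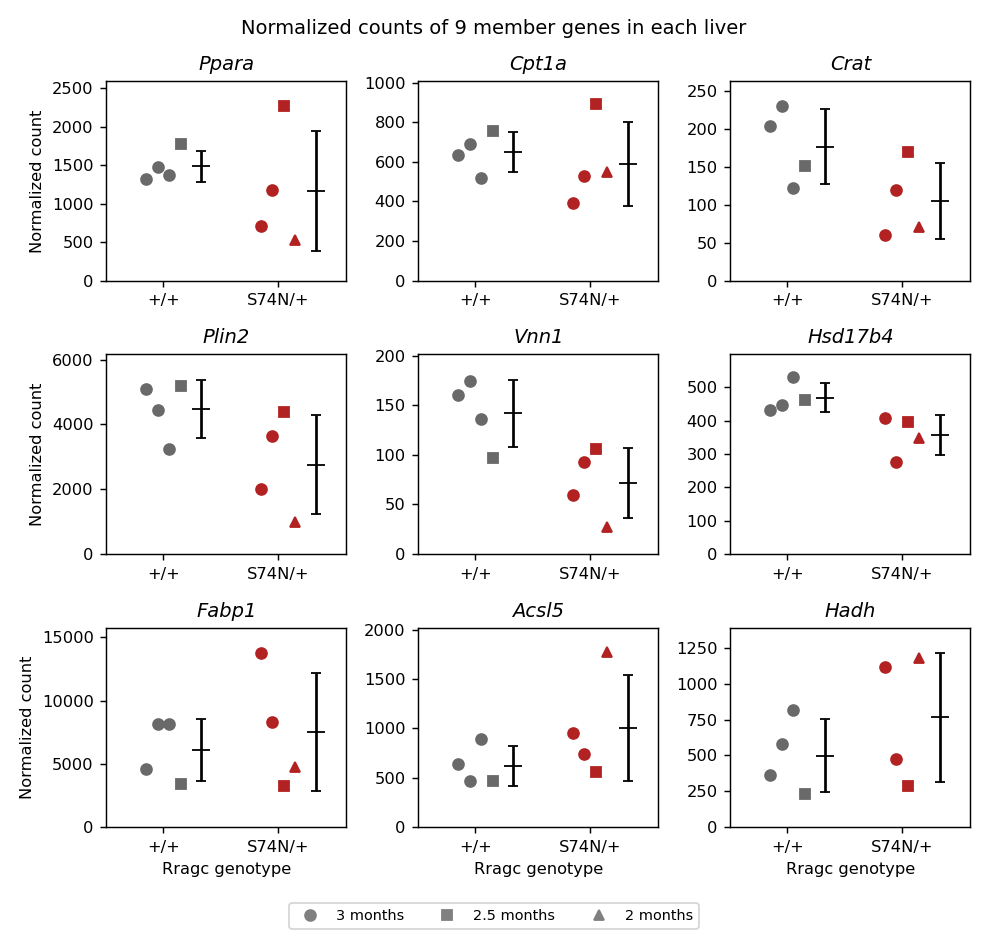
Normalized counts of 9 members in each liver (y axis from 0), by *Rragc* genotype (x axis), with the mean and SD (n = 4) as a bar beside the points and the age of the mouse as the symbol. Groups overlap for 8 of the 9 genes, the exception being *Hsd17b4*.

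The auxiliary enzymes for unsaturated chains and the electron transfer chain showed no member with an unadjusted p under 0.05. *Eci1* and *Eci2*, which move double bonds, differed by 0.11 and 0.02, and *Decr1* and *Decr2*, the mitochondrial and peroxisomal dienoyl-CoA reductases, by -0.41 and 0.18. *Ech1* differed by -0.21. *Decr1* was lowest in *Rragc* S74N/+ replicate 4, at 471 against 1108 ± 147 (SD, n = 4) in *Rragc*+/+ livers. *Etfa*, *Etfb* and *Etfdh*, which pass electrons from the dehydrogenases to the respiratory chain, differed by 0.21, -0.26 and -0.29. Reads of *Etfb* are uncertain, since 34.2% of the 50-base words in the last 400 bases of its transcripts are shared with the overlapping *Gm45233*.

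Of the 8 genes of peroxisomal oxidation 7 had a log2 fold change below 0, with a median log2 fold change of -0.28. The mean log2 level was 10.19, 9.91, 10.001 and 9.98 in *Rragc*+/+ livers and 9.83, 9.79, 10.03 and 9.29 in *Rragc* S74N/+ livers, so that 1 mutant liver stood apart from the others. The difference of -0.29 became -0.14 without *Rragc* S74N/+ replicate 4. *Hsd17b4*, the D-bifunctional protein that hydrates and oxidises very long chains, was at 433, 446, 532 and 462 in *Rragc*+/+ and at 408, 277, 397 and 349 in *Rragc* S74N/+ livers. It was the only member whose groups did not overlap, and its lowest liver was replicate 2 rather than replicate 4. The log2 fold change was -0.40 ± 0.20 (SE, 95% interval -0.82 to 0.03). The exact two-sided permutation p was 0.0286, the smallest that 70 labellings allow, and the limma adjusted p was 0.846. Without replicate 4 the value was -0.39. The pseudogene *Cd63-ps* overlaps *Hsd17b4* on the same strand, so its reads are uncertain to that extent.

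*Ehhadh*, the L-bifunctional protein (chr16:21761287-21787807, reverse strand), was at 182, 109, 137 and 121 against 94.6, 176, 155 and 84.0, a difference of -0.15 ± 0.29 (SE). *Acaa1a* and *Acaa1b*, the 2 peroxisomal thiolases, differed by -0.42 and -0.71. They share 36.2% of the 50-base words in the last 400 bases of their transcripts, so reads may be split between them. *Acaa1b* reached 2123 in *Rragc* S74N/+ replicate 4, where the other 7 livers were between 6022 and 12190.5. *Pex11a*, which promotes peroxisome division, differed by -0.46, the lipid transporter *Abcd3* by -0.13, and *Acox2*, which oxidises branched chains and bile acid precursors, by 0.12. *Scp2* differed by -0.15, and 81.8% of such words in it are shared with a pseudogene, *Scp2-ps2*.

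The 2 ketone body enzymes among the members had small differences with intervals on both sides of 0. *Bdh1*, which reduces acetoacetate to beta-hydroxybutyrate (chr16:31422280-31458901, forward strand), was at 931, 1224, 942 and 902 in *Rragc*+/+ and at 1098, 1055, 951 and 721 in *Rragc* S74N/+ livers. The difference was -0.07 ± 0.20 (SE, 95% interval -0.51 to 0.36). *Acat1*, the thiolase that condenses acetyl-CoA, differed by -0.05, with an interval from -0.54 to 0.45.

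The 3 other PPARA targets included the members with the lowest fold changes, *Vnn1* and *Plin2*. *Vnn1*, the pantetheinase that recycles a precursor of coenzyme A (chr10:23894688-23905343, forward strand), was at 160.3, 174, 136 and 97.2 in *Rragc*+/+ livers and at 59.7, 92.4, 106 and 26.9 in *Rragc* S74N/+ livers. Replicates 1, 2 and 4 of *Rragc* S74N/+ lay under every *Rragc*+/+ liver, and replicate 3 lay above the lowest of them. The log2 fold change was -1.12 ± 0.38 (SE, 95% interval -1.95 to -0.29, unadjusted limma p = 0.0119, adjusted p = 0.846, exact two-sided permutation p = 0.0571). It was -0.72 without *Rragc* S74N/+ replicate 4, -1.37 without replicate 3 and -1.06 in 3-month-old mice.

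*Plin2*, whose promoter sequence is given above (chr4:86648386-86670060, reverse strand), was at 5082, 4436, 3229.5 and 5184 in *Rragc*+/+ and at 2017, 3635, 4393 and 1002 in *Rragc* S74N/+ livers. Replicates 1 and 4 lay under every *Rragc*+/+ liver, and replicates 2 and 3 lay within their range. The log2 fold change was -0.89 ± 0.38 (SE, 95% interval -1.71 to -0.06, limma adjusted p = 0.846, exact two-sided permutation p = 0.114), and -0.47 without replicate 4. *Angptl4*, a secreted inhibitor of lipoprotein lipase (chr17:33773750-33781830, reverse strand), varied most of all members, with an SD of 1.08 over the 8 livers on the log2 scale. It was at 106, 173, 147 and 81.3 in *Rragc*+/+ and at 100.1, 240.0, 127 and 18.8 in *Rragc* S74N/+ livers, with the highest and the lowest value both in the mutant group. Its difference was -0.47 ± 0.58 (SE), and 0.25 without replicate 4, so its sign rested on that liver.

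Other genes of the pathway, a list of 91 of which 83 were in the table and 79 were tested, had a median fold change above 0. None had an adjusted p under 0.05 with limma or edgeR. Of the 79, 9 had an unadjusted limma p under 0.05 (11.4% against 5.17% of all genes). Of these, 8 were above and 1 was below its *Rragc*+/+ mean, and the 8 include *Acot3*, taken up below. The unadjusted count was 12 with edgeR (background 5.53%) and 10 with DESeq2 (6.04%). Without *Rragc* S74N/+ replicate 4 it was 3 (background 2.82%), without *Rragc*+/+ replicate 1 it was 2 (3%), and without *Rragc* S74N/+ replicate 3 it was 21, where 15.1% of all genes passed. The median over the 79 was 0.09, with 48 above 0 and 31 below. By sublist the median was 0.00 over 15 PPARA partners and coactivators, 0.06 over 31 oxidation and ketogenesis enzymes and 0.21 over 33 PPARA targets and lipid droplet genes. In the last sublist *Acot3*, *Cyp4a32* and *Slc25a34* had *Rragc*+/+ means of 8.33, 5.37 and 8.55, under the filter of 10. Their *Rragc* S74N/+ means were 46.1, 15.3 and 14.1. They were tested only through the mutant group, so counts and medians that hold them do not count as support for a direction.

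Of that list, 3 genes had the smallest unadjusted p. *Acot3*, a peroxisomal acyl-CoA thioesterase induced by PPARA, was at 7.46, 5.61, 15.6 and 4.67 in *Rragc*+/+ livers and at 25.7, 18.7, 53.5 and 86.5 in *Rragc* S74N/+ livers, and the groups did not overlap. Its log2 fold change was 2.22 ± 0.55 (SE, limma adjusted p = 0.846, exact two-sided permutation p = 0.0286), and DESeq2 gave an adjusted p of 0.0357. Its mean was 8.33 in *Rragc*+/+ livers, under the filter of 10, and 46.1 in *Rragc* S74N/+ livers. It was thus tested only through its level in the mutant group, and these values do not count as support for a direction. *Cyp4a14*, a fatty acid omega-hydroxylase and PPARA target, was at 386, 1835, 765 and 129.9 against 2291, 1515, 1328 and 3868. Its log2 fold change was 1.99 ± 0.62 (SE, limma adjusted p = 0.846), and the groups overlapped at *Rragc*+/+ replicate 2. *Gk*, glycerol kinase, was at 173, 297, 209 and 156 against 483, 325, 206 and 395, a log2 fold change of 0.73 ± 0.29 (SE, limma adjusted p = 0.846). The *Acot* and *Cyp4a* genes have close relatives, so reads may be split among them. PPARA targets with positive and with negative differences stood side by side, since *Cyp4a14* was above 0 where *Vnn1* and *Plin2* were below it. *Pex16*, a peroxisome assembly factor named after its values were seen, was the other tested gene of the list without overlap, with a log2 fold change of -0.32. Over all tested genes 2.94% had no overlap. *Plin4*, a lipid droplet gene named in the same way, was in the table and too low over the 8 livers to be tested. It was at 12.1, 15.9, 18.4 and 10.3 against 6.43, 0, 4.46 and 1.63, also without overlap. Its mean was 14.2 in *Rragc*+/+ livers, over the filter of 10, and 3.13 in *Rragc* S74N/+ livers.

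Some marker lists differed between the livers. The sex, feeding state and hour of collection of these mice are not given in the sources used here. The mean log2 level of 16 genes that are higher in male than in female liver was between 11.68 and 11.77 in *Rragc*+/+ livers, and was 11.42, 10.93, 11.32 and 9.02 in *Rragc* S74N/+ replicates 1 to 4. All 16 were tested, and their summed normalized count was 215840 to 267270 in *Rragc*+/+ and 91687 to 211910 in *Rragc* S74N/+ livers. On that list every *Rragc* S74N/+ liver lay under every *Rragc*+/+ liver. *Rragc* S74N/+ replicate 4 was the lowest there as on the members. Replicate 3, the highest liver on the members (9.89), was under the *Rragc*+/+ livers on that list. A list of 10 genes of the fasting response, all tested, was at 7.28, 7.08, 7.13 and 7.45 in *Rragc*+/+ livers and at 8.43, 7.34, 7.01 and 8.60 in *Rragc* S74N/+ livers, with summed counts of 2411 to 3747 and 2735 to 10914. Replicates 1 and 4, the livers in which *Ppara*, *Crat* and *Plin2* were lowest, were the highest on it. The 10 periportal genes had the same order at the top, with 9.36 and 10.03 in these livers against 8.27 to 8.87 in *Rragc*+/+ livers. All 10 were tested, with summed counts of 13169 to 15371 in *Rragc*+/+ and 13686 to 20326 in *Rragc* S74N/+ livers.

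A list of 10 clock genes that peak near dusk, 7 of them tested, was highest in *Rragc* S74N/+ replicate 3 (7.43) and *Rragc*+/+ replicate 4 (7.12), the 2.5-month-old mice, and between 5.32 and 6.22 in the other 6, with summed counts of 914 to 1712.5 in *Rragc*+/+ and 585 to 2376 in *Rragc* S74N/+ livers. These are the livers with the highest *Ppara* and *Cpt1a*. Over all members, though, *Rragc*+/+ replicate 4 had the lowest mean log2 level of its group (9.73). It was the lowest of the 8 livers for 6 members. Kupffer cell markers, 9 of 9 tested, were at 7.20 ± 0.0561 and 7.65 ± 0.337 (SD, n = 4 each), with summed counts of 1952 to 3381 and 2360 to 3904. Of 8 kidney tubule genes 4 were in the table and 1 was tested, at 6.26, 6.26, 6.11 and 7.36 against 5.17, 5.56, 2.94 and 3.54. These are the values of 1 gene and do not show a cell type. The part of these differences in the values of the members was not tested.

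**Figure D4:**
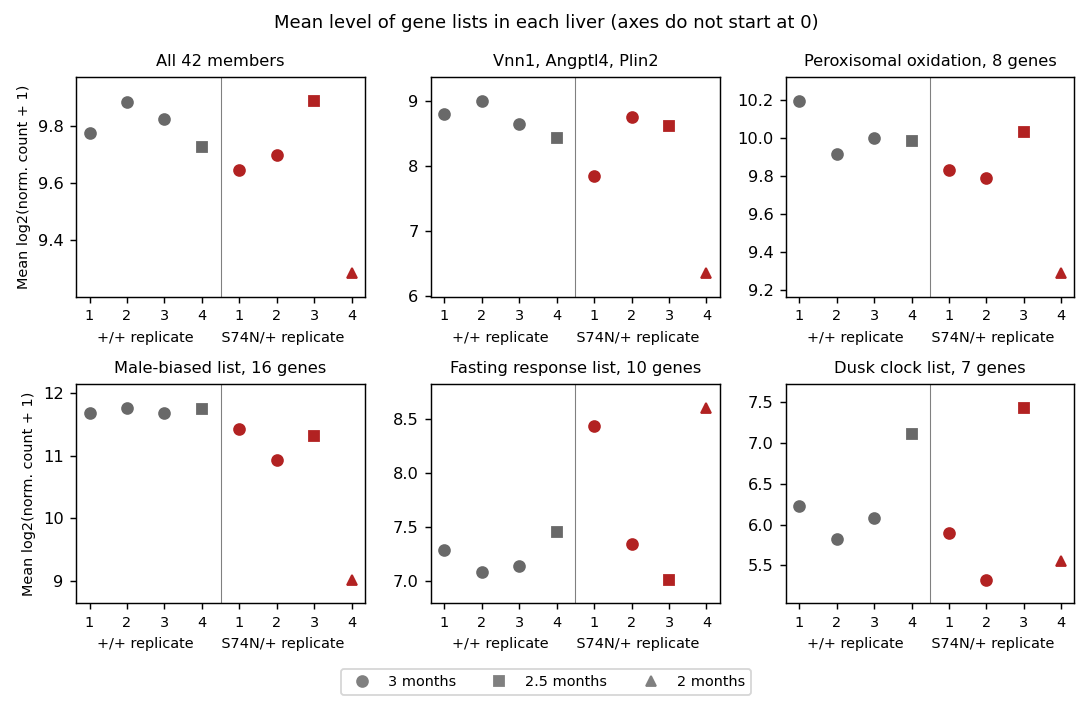
Mean log2(normalized count + 1) in each liver for the 42 members, for *Vnn1*, *Angptl4* and *Plin2*, for 8 peroxisomal genes and for lists of 16 male-biased, 10 fasting response and 7 dusk clock genes (y axes do not start at 0), with the age of the mouse as the symbol. *Rragc* S74N/+ replicate 4 (2 months) is lowest in the upper panels and on the male-biased list and highest on the fasting list, and the 2.5-month-old mice are highest on the clock list.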

How the data were processed

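RNA from 8 livers was sequenced from the 3′ end (QuantSeq). According to the methods and the labels, the authors mapped reads with TopHat2 2.0.10, Bowtie 1.0.0 and SAMtools 0.1.19 to GRCm38 in nextpresso, counted them by strand with HTSeq 0.6.1 on GENCODE genes and scaled them with DESeq2. The deposited signal is a normalized count per gene and liver, with size factors from 0.707 to 1.23. Every value (100%, within 0.01) was a whole multiple of a liver's smallest value above 0, so whole reads were recovered. Reads carry no stated molecular identifiers, so precision covers counting error and the spread between livers only. All sample columns were used, and replicate numbers only name a liver.

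Differences were tested here with limma 3.58.1 (R 4.3.3, mean-variance trend, genotype as the only term) on log2(normalized count + 1), with Benjamini-Hochberg adjustment over 11174 genes with a mean of at least 10. Fold changes are on this log2 scale, which understates those of low genes. Recovered reads were also tested with edgeR 4.0.16 (quasi-likelihood) and DESeq2 1.42.0, and exact permutation tests used 70 labellings. Scripts were tested on simulated counts. Other settings were pseudocounts of 0.1 and 5, a filter at a mean of 50 or none, rescaling by TMM or upper quartile, no trend, age as covariate or factor, 3-month-old mice alone, and leaving out each liver. Coordinates and shared words are from GENCODE M21, a neighbouring release of the authors' annotation. In it *Crot*, *Acadl*, *Hadhb*, *Decr1*, *Etfdh*, *Scp2* and *Abcd3* also have an overlapping gene on the same strand. Members and lists were chosen with earlier results of these data known. Values in every liver are given for 11 members chosen by role, members with an unadjusted p under 0.05 or without overlap, and the 3 with the highest or lowest fold change or the largest SD. Markers of lymphocytes had no tested gene.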

Additional observations from a re-analysis of the deposited data

Results flagged for a closer look

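In 4 of 86 groups of 4 livers (42 members and the mean of all members, in each genotype), 1 liver stood apart from the other 3 by more than Dixon's 95% limit, where about 4.3 are given by chance at 1 in 20. On the log2 scale, *Cpt2* was 8.80 in *Rragc*+/+ replicate 2 against 8.04 to 8.10 in the others, and *Bdh1* was 10.26 in the same liver against 9.82 to 9.88. *Ech1* was 9.61 in *Rragc* S74N/+ replicate 4 against 9.84 to 9.87, and *Pex11a* was 9.0 in that liver against 10.15 to 10.37. *Rragc*+/+ replicate 2 was the highest liver for 8 members in all, and *Rragc* S74N/+ replicate 4 the lowest for 20.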

How the results depend on the processing

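No member had an adjusted p under 0.05 in any setting, the smallest being 0.644 over 12 other settings and 0.256 when a liver was left out. Of 504 member values in those settings, 490 kept their sign, and scaling moved the median of all genes by less than 0.1. The count of members at an unadjusted p was 1 without the trend (background 5.4%), 1 with age as a number (background 3.71%) and 5 in 3-month-old mice, and 1 to 13 when a liver was left out. For the other pathway genes it was 4, 4 and 10, and 2 to 21. DESeq2 gave 1 of these an adjusted p under 0.05 (*Acot3*, tested only through its level in the mutant group), and leaving out a liver gave 0 to 0. Without a liver the members' median ranged from -0.29 to -0.09 and the difference of their mean from -0.26 to -0.06. The cause of these shifts was not tested, beyond the fewer livers.

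Signs that turned were those of differences under 0.3 in size, apart from *Angptl4* (-0.47). With age as a number, *Crot* was 0.054, *Bdh1* 0.057 and *Angptl4* 0.15. With age as a factor, *Crot* was 0.12, *Ehhadh* 0.022, *Bdh1* 0.073 and *Angptl4* 0.30. In 3-month-old mice, *Crot* was 0.078, *Hadhb* -0.035, *Eci2* -0.034, *Abcd3* 0.043, *Bdh1* 0.072, *Acat1* 0.051 and *Angptl4* 0.15. When a liver was left out, values ran from -0.16 to 0.096 for *Acat1*, -0.30 to 0.0059 for *Acsl1*, -0.95 to 0.25 for *Angptl4*, -0.14 to 0.057 for *Bdh1*, -0.14 to 0.13 for *Crot*, -0.14 to 0.19 for *Eci2*, -0.33 to 0.023 for *Ehhadh*, -0.0032 to 0.40 for *Etfa*, -0.17 to 0.53 for *Fabp1* and -0.0014 to 0.23 for *Hadhb*. No paired analysis was possible because replicates were numbered in sample order, which ties no livers across genotypes.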
